A study of Mus musculus with 8 samples.

Results

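The genes described here are 10 components of the bone morphogenetic protein (BMP) pathway: the ligand genes Bmp2, Bmp4 and Bmp7, the Id genes Id1, Id2 and Id3, and the inhibitor genes Fst, Smad6, Smad7 and Bambi. They were chosen by symbol, and each had 1 row among the 27514 genes shared by all 8 count matrices, so all 10 members could be measured. The libraries hold thymic epithelial cells (TEC), the stromal cells that guide T cell development, from the thymus of mice labelled C57 B6 (CD45.2) with genotype WT. The 8 single-cell libraries form 6 groups. Total TEC at E13.5, and cortical TEC (cTEC) at E15.5, at E17.5 and from newborn (NB) mice, have 1 library each, while adult cTEC and adult medullary TEC (mTEC) have 2 each. Live EpCAM+ CD45- cells were sorted throughout. cTEC were taken as Ly51+ UEA-1-, mTEC as Ly51- UEA-1+, and E13.5 TEC were not split by these markers, since the lineages cannot be separated by them at that stage. No group carried a transgene or received a treatment, and animals of either sex were used. Cells were captured as 2 data sets. The E17.5 library and the adult libraries numbered 2 belong to data set 2, and the other 5 libraries to data set 1. The E13.5 library and the 5 cTEC libraries are called the cortical line below.

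BMPs are secreted ligands that bind paired type I and type II serine/threonine kinase receptors, which phosphorylate SMAD1, SMAD5 and SMAD9 so that these join SMAD4 and enter the nucleus. The Id genes are classic direct targets of this signal; their products lack a DNA-binding domain and hold E proteins, a class of helix-loop-helix transcription factors, away from DNA. Follistatin, encoded by Fst, binds activins and some BMPs outside the cell, BAMBI is a decoy receptor without a kinase domain, and SMAD6 and SMAD7 are inhibitory SMADs that are themselves induced by the pathway. In the thymus, BMP4 from mesenchyme and endothelium is known to act on TEC and to support Foxn1, the transcription factor that TEC need.

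RefSeq promoter sequences (GRCm38.p6, from 250 bases before to 50 bases after each start) were matched for 4 of the 10 members, Id2, Id3, Smad6 and Bmp4. They were searched on both strands for GGCGCC, a GC-rich motif bound by SMAD1 and SMAD5, and for GTCTAGAC, the palindromic SMAD-binding element; neither motif contains the other. The stretches below are the windows of 30 bases around the matches, with the motif in capitals, shown because these were the matches in the 4 promoters.
Id2: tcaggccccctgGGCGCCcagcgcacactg
Smad6: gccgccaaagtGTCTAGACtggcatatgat
The Id2 window lies at chr12:25096306-25096335 on the minus strand, and its motif spans positions -231 to -226 from the RefSeq start. That start and the window lie inside the Id2 span of the annotation used below, downstream of the gene start given there. The Smad6 window lies at chr9:64022045-64022074, also on the minus strand, and its motif spans the start itself, from -4 to 3. GGCGCC was present in 3898 of 32851 mouse promoters of this length (11.9%) and GTCTAGAC in 70 (0.213%). The windows of Id3 and Bmp4 did not contain these letters. A match is a description of the sequence and was not tested for function.

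After the limits of the study on mitochondrial content and gene number, 25750 of 28334 cells remained, and 25291 of these were called epithelial-like and entered the values below. They include a cluster of 236 cells of data set 2 led by haemoglobin genes, with a median of 1753.5 UMIs. It held 135 cells of E17.5 cTEC, 93 of adult mTEC and 8 of adult cTEC, and did not reach the limit for erythroid markers. The median depth per library ranged from 3955 to 11386 unique molecular identifiers (UMIs) per cell, with the fewest cells in adult cTEC (493 and 535). Levels are given as counts scaled to a common library size (CPM), with exact Poisson 95% intervals where printed. Shares of cells with a UMI were taken after thinning each cell to 3000 UMIs, which left out 30.8% of the cells of adult cTEC replicate 1. Intervals cover counting error only, and most groups had 1 library. A summed list of 18 dissociation stress genes stood at 535 to 860 CPM in the fetal libraries, 11770 in NB cTEC, 21120 and 12210 in adult cTEC and 10790 and 5929 in adult mTEC; fetal thymi were dissociated with trypsin and later ones with Liberase, so digestion and age cannot be told apart. The cortical markers Psmb11 or Prss16 were seen in 99.5% to 99.9% of E15.5, E17.5 and NB cTEC, in 86.6% of E13.5 TEC, in 66.1% and 79.6% of adult cTEC and in 25.1% and 29.6% of adult mTEC. Mesenchymal markers summed to at most 30.7 CPM from E13.5 to NB and to 510 and 318 CPM in adult cTEC, of which 499 and 310 were Dcn. Col3a1 was at 4.17 and 4.46 CPM there against 0.649 in NB cTEC, and Lum at 3.24 and 1.24 against 0.778, while Pdgfra was at 0 in both, Col1a1 in replicate 1 and Pdgfrb in replicate 2. Adult mTEC had 99.7 and 69.1 CPM of the list. Endothelial markers summed to between 9.06 and 23.1 CPM in all libraries but adult cTEC replicate 1, which had 72.7. Markers of the medullary subset mTEC I, described below, summed to 962 CPM in E13.5 TEC, 228 to 428 in E15.5, E17.5 and NB cTEC, 6178 and 1350 in adult cTEC and 8334 and 4002 in adult mTEC. Myeloid markers summed to at most 3.94 CPM before the adult, 359 and 32.7 in adult cTEC and 467 and 589 in adult mTEC. A cluster of 522 cells of adult mTEC replicate 1 and 24 of adult cTEC replicate 1 met the limit for myeloid markers and was kept, since none of these was among its leading genes; its mTEC had Epcam at 716 CPM, Aire at 767 and the myeloid list at 1031. The results it moves most are also given without it, an alternative chosen after the data were seen. The part of these lists in the results was not tested. The only left-out cells in number after birth, 169 thymocyte-like cells of the NB library, had Psmb11 at 1636 CPM and so gave no level of free RNA to set beside the shares.

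The ligands followed separate patterns: Bmp2 was highest in adult mTEC, Bmp4 was close to absent there, and Bmp7 was present in every library. Bmp2 (chr2:133552159-133562885, GRCm38) stood at 5.17 CPM in E13.5 TEC, 2.04 in E15.5 cTEC, 1.78 in E17.5 cTEC, 6.62 in NB cTEC, 2.32 and 5.69 in adult cTEC, and 34.9 and 33.2 in adult mTEC. Both mTEC libraries thus lay far above all others, with intervals of 32.1 to 37.9 and 31.8 to 34.6. Adult cTEC rested on 5 UMIs in replicate 1, at 0.350 times NB cTEC (0.112 to 0.835), and on 23 in replicate 2, at 3.20 times E17.5 cTEC (1.97 to 4.98), and the replicates did not differ beyond counting error (2.46, 0.914 to 8.28). Without the 24 cells of the cluster with myeloid markers, adult cTEC replicate 1 was at 0.491 CPM on 1 UMI, 0.0742 times NB cTEC (0.00187 to 0.419), and the replicates did differ (11.6, 1.88 to 478). Bmp2 was seen in 7.36% and 7.63% of thinned adult mTEC, against at most 1.77% in any cortical library (unthinned 18.6% and 22.0%, against at most 3.84%).

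Bmp4 (chr14:46383520-46390669) stood at 9.83, 5.24, 5.10 and 0.735 CPM in E13.5 TEC, E15.5, E17.5 and NB cTEC, at 8.34 and 6.44 in adult cTEC, and at 0.120 and 0.208 in adult mTEC. E13.5 TEC and both adult cTEC libraries were the highest, and the adult cTEC intervals (4.94 to 13.2 and 4.20 to 9.43) overlapped those of each other and of E15.5 and E17.5 cTEC. NB cTEC was the low point of the cortical line, at 0.140 times E15.5 cTEC (interval 0.0795 to 0.232), and adult cTEC of the same data set was 11.3 times NB (5.52 to 23.4). Few cells carried the transcript: at most 2.97% of thinned cells in any library, 0 of the thinned cells of adult mTEC replicate 1 and 0.111% of replicate 2. The gene overlaps the rows Gm15217 and Gm15222 on the other strand.

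Bmp7 (chr2:172868012-172940321) varied least, from 64.1 CPM in E13.5 TEC through 45.0, 53.2 and 46.4 in E15.5, E17.5 and NB cTEC to 36.6 and 34.7 in adult cTEC and 38.4 and 30.9 in adult mTEC. E13.5 TEC was the highest library and adult mTEC replicate 2 the lowest. NB and E15.5 cTEC did not differ beyond counting error (ratio 1.03, interval 0.950 to 1.12), nor did adult cTEC and mTEC in either data set (0.954, 0.745 to 1.21, and 1.12, 0.937 to 1.33). Without the cluster with myeloid markers, the ratio in data set 1 was 0.782 (0.608 to 0.995).

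**Figure D1:**
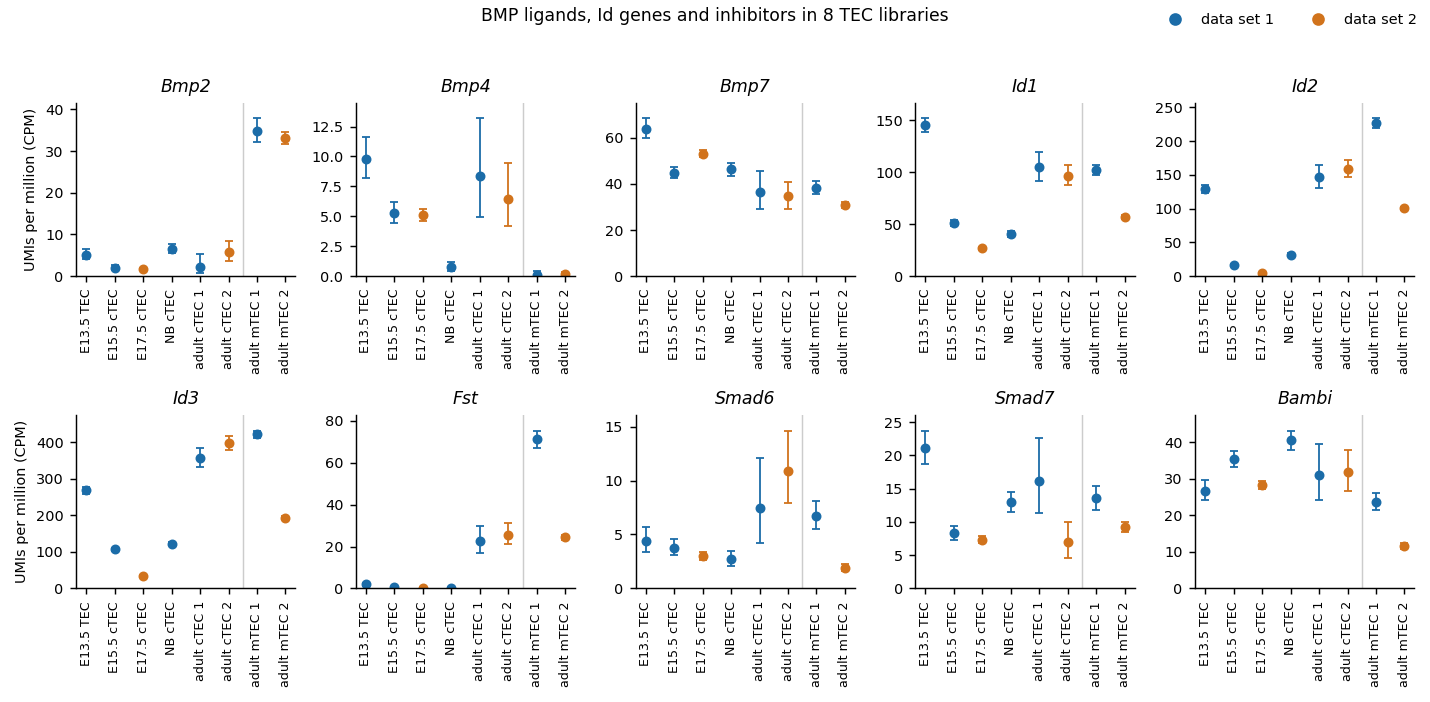
Level of each of the 10 genes in the 8 libraries, in scaled counts (CPM, linear axes from 0, each gene on its own scale). Points are libraries, colours are data sets, bars are exact Poisson 95% intervals (counting error only) and the grey line separates the cortical line from adult mTEC. The Id genes are low at E17.5 and higher in the adult libraries, Fst is below 2 CPM before adulthood, and Bmp2 and Bmp4 take opposite sides of the grey line.

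The Id genes were high at E13.5, low in late fetal cTEC and high again in the adult. Id1 (chr2:152736251-152737410) stood at 145 CPM in E13.5 TEC, 51.3 in E15.5 cTEC, 26.7 in E17.5 cTEC, 40.3 in NB cTEC, 105 and 96.8 in adult cTEC and 102 and 56.7 in adult mTEC. E13.5 TEC was the highest library, and adult cTEC of data set 1 reached 0.724 times its level (0.629 to 0.832). The adult cTEC replicates did not differ from each other beyond counting error (ratio 0.920, 0.779 to 1.09), whereas the adult mTEC replicates did (1.80, 1.70 to 1.91).

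Id2 (chr12:25093799-25097140), whose matched RefSeq promoter holds the GGCGCC motif shown above, had the deepest low point: 129 CPM in E13.5 TEC, 16.9 in E15.5 cTEC, 4.86 in E17.5 cTEC, 31.9 in NB cTEC, 147 and 158 in adult cTEC and 226 and 100.3 in adult mTEC. Within data set 1 it was 0.131 times as high at E15.5 as at E13.5 (0.118 to 0.145), and 4.60 times as high in adult as in NB cTEC (4.02 to 5.26). Within data set 2 adult cTEC was 32.6 times E17.5 cTEC (28.8 to 36.9). The share of thinned cells with an Id2 UMI went from 26.6% at E13.5 to 4.60%, 1.22% and 7.99% at E15.5, E17.5 and NB, and was 29.3% and 30.3% in adult cTEC.

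Id3 (chr4:136143497-136145755) stood at 268, 107, 35.4 and 122 CPM in E13.5 TEC, E15.5, E17.5 and NB cTEC, at 358 and 399 in adult cTEC and at 422 and 194 in adult mTEC. Both adult cTEC libraries lay above E13.5 TEC, with a ratio of 1.33 within data set 1 (1.23 to 1.44). Id3 was seen in 45.9%, 22.95%, 9.19% and 25.7% of thinned cells from E13.5 to NB and in 48.4% and 53.8% of adult cTEC. The E17.5 low point of all 3 Id genes rested on 1 library, the only fetal library of data set 2, so that stage and data set cannot be told apart there. The drop from E13.5 to E15.5 lay within data set 1, at 0.353 times for Id1 (0.330 to 0.378) and 0.399 times for Id3 (0.380 to 0.419). The sort also changed there, from total TEC to cTEC, so stage and sort cannot be told apart. Between these libraries the mTEC I markers went from 962 to 228 CPM and cycling cells from 80.9% to 32.6%. The part of these shifts in the drop was not tested. NB cTEC had Id1 at 0.787 (0.724 to 0.855), Id2 at 1.89 (1.68 to 2.13) and Id3 at 1.14 times (1.08 to 1.20) the E15.5 level. The mTEC I marker sums given above were also higher in adult than in E15.5 to NB cTEC, and their part in the Id levels was not tested.

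**Figure D2:**
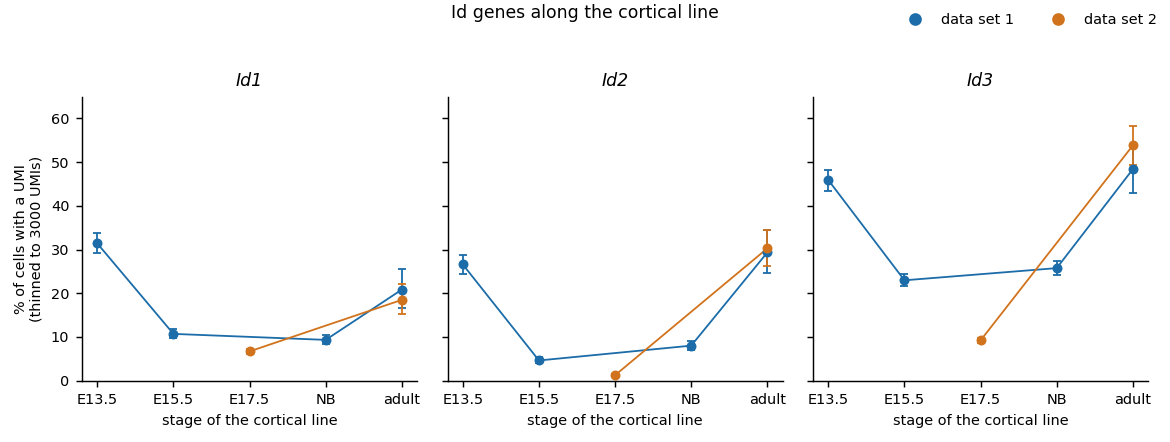
Share of cells with a UMI of Id1, Id2 and Id3 along the cortical line, after thinning every cell to 3000 UMIs (linear axis from 0, in % of cells). Points are libraries with exact binomial 95% intervals, and lines join libraries of 1 data set. All 3 genes fall from E13.5 total TEC to E15.5 cTEC, are lowest at E17.5 (6.67%, 1.22% and 9.19%) and are high in both adult cTEC libraries.

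Of the inhibitors, Fst was nearly confined to adult TEC among these libraries. Fst (chr13:114452290-114458951) stood at 1.92, 0.473, 0.378 and 0.346 CPM in E13.5 TEC, E15.5, E17.5 and NB cTEC, on 26, 13, 34 and 8 UMIs, against 22.7 and 25.7 CPM in adult cTEC and 71.2 and 24.5 in adult mTEC. Every adult library was above every earlier one. Adult cTEC was 65.6 times NB cTEC in data set 1 (30.8 to 160) and 68.1 times E17.5 cTEC in data set 2 (45.9 to 104), where 0.120% and 0.0731% of thinned NB and E17.5 cells had a UMI against 3.81% and 7.47% of adult cTEC. NB and E15.5 cTEC did not differ beyond counting error (ratio 0.731, 0.263 to 1.90). In cells with a UMI of the cortical genes Psmb11 or Prss16, Fst was at 11.8 and 15.6 CPM in adult cTEC against 0.303 in NB and 0.378 in E17.5 cTEC. The mTEC I markers were at 6178 and 1350 CPM in adult cTEC against 428 in NB and 338 in E17.5 cTEC, and their part in the Fst levels was not tested. The stress gene sum was 21120 and 12210 CPM in adult cTEC and 11770 in NB cTEC, against at most 860 in the fetal libraries. Its part in the Fst levels was not tested.

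Smad6 (chr9:63953076-64022059), an inhibitory SMAD whose start holds the GTCTAGAC element shown above, stood at 4.43, 3.75, 2.98 and 2.72 CPM from E13.5 to NB, at 7.41 and 10.9 in adult cTEC, and at 6.74 and 1.89 in adult mTEC. Adult cTEC was the highest group, at 2.72 times NB (1.47 to 4.77) and 3.66 times E17.5 cTEC (2.60 to 5.05), but the adult mTEC replicates differed 3.57 times from each other (2.75 to 4.64). E13.5 and E15.5 did not differ beyond counting error (0.846, 0.610 to 1.18).

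Smad7, the other inhibitory SMAD, stood at 21.1, 8.30, 7.31 and 12.9 CPM from E13.5 to NB, at 16.2 and 6.93 in adult cTEC and at 13.54 and 9.25 in adult mTEC. It fell with the Id genes from E13.5 to E15.5 (0.393 times, 0.329 to 0.469), but the adult cTEC replicates lay apart (0.427, 0.250 to 0.723) on either side of the NB library. Bambi, the decoy receptor, stood at 26.7, 35.3, 28.2 and 40.5 CPM from E13.5 to NB, at 31.0 and 31.9 in adult cTEC and at 23.8 and 11.5 in adult mTEC. Adult mTEC replicate 2 was the lowest library. Without the cluster with myeloid markers, adult mTEC replicate 1 was lower still, at 8.60 CPM.

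The first test asked whether any member changed steadily with age over the 6 libraries of the cortical line (edgeR's quasi-likelihood test of the slope per stage, data set as a term, Benjamini-Hochberg adjustment over 14265 genes). Of the 10 members 0 passed, and 0 had an unadjusted p under 0.05 or passed in DESeq2. Of all genes tested, 8.39% passed, 5.27% as rising and 3.12% as falling, and 28.2% had such an unadjusted p. The largest slope was that of Fst, at a log2 difference of 1.11 per stage (SE 0.49, adjusted p = 0.195), and the next by adjusted p was Bmp7 at -0.18 (SE 0.08, adjusted p = 0.199). The Id genes, whose levels went down and up again along these stages, had slopes of 0.01, 0.26 and 0.28 for Id1, Id2 and Id3 (adjusted p = 0.99, 0.707 and 0.527). The slope is a straight line over stage and does not describe a low point in the middle. Without E13.5 TEC, Fst (2.16, adjusted p = 0.0395) and Id2 (1.31, adjusted p = 0.0472) passed; their adjusted p over all alternatives ranged from 0.0395 to 0.976 and from 0.0472 to 0.986. The median slope was 0.11 over the members and 0 over all genes tested, and 15 of the 18 stress genes rose in the same test.

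The second test set the 2 adult cTEC libraries against the 2 adult mTEC libraries, with the same term for the data set. It uses the same adult cTEC libraries as the age trend, so the tests are not independent. Here 2 of the 10 members passed, where 32.4% of all 15627 genes tested did, 11.2% as higher and 21.2% as lower in cTEC. Bmp2 was lower in cTEC by a log2 difference of -3.13 (SE 0.49, adjusted p = 2.65e-07), and Bmp4 was higher by 5.26 (SE 0.89, adjusted p = 1.66e-06). Both directions held in each data set, with cTEC over mTEC ratios of 0.0664 (0.0215 to 0.156) and 0.172 (0.109 to 0.258) for Bmp2 and of 69.3 (16.6 to 616) and 30.9 (15.6 to 64.1) for Bmp4. The Bmp4 levels in mTEC rest on 2 and 14 UMIs, and without the cluster with myeloid markers the Bmp2 ratio in data set 1 was 0.0207 (0.000521 to 0.116) on 1 UMI in cTEC.

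The other 8 members did not pass, and 4 of the 10 had an unadjusted p under 0.05, as did 41% of all genes tested. Smad6 (log2 difference 1.34, adjusted p = 0.0733) and Bambi (0.87, adjusted p = 0.103) came closest. Bambi passed as higher in cTEC without the cluster with myeloid markers (1.53, adjusted p = 0.0184) and in all deposited cells (0.98, adjusted p = 0.0495), as did Smad6 in all deposited cells (1.39, adjusted p = 0.0473). Fst passed as lower in cTEC in resting cells only (-1.19, adjusted p = 0.0179) and with adult cTEC limited to cells with a cortical UMI (-1.63, adjusted p = 0.033). Over all 14 alternatives the adjusted p ranged up to 0.781 for Bambi, 0.799 for Smad6 and 0.898 for Fst. For Id2 and Id3 the data sets pointed opposite ways: the cTEC over mTEC ratio was 0.649 (0.577 to 0.728) and 1.58 (1.45 to 1.71) for Id2, and 0.848 (0.786 to 0.913) and 2.06 (1.95 to 2.17) for Id3. Fst was lower in cTEC in data set 1 (0.319, 0.235 to 0.425) and did not differ in data set 2 beyond counting error (1.05, 0.855 to 1.28). These splits followed the adult mTEC libraries, in which replicate 1 was above replicate 2 by 2.25 times for Id2 (2.17 to 2.35), 2.18 for Id3 (2.11 to 2.24) and 2.91 for Fst (2.70 to 3.14). The median difference was 0.16 over the members and -0.14 over all genes tested. Of the stress genes, 8 of 18 were higher in cTEC and 0 lower.

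**Figure D3:**
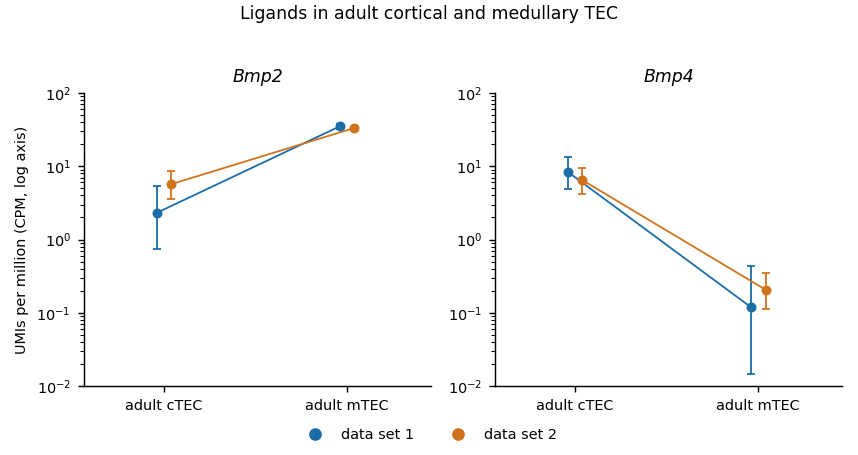
Bmp2 and Bmp4 in adult cTEC and adult mTEC, in scaled counts (CPM, log axis). Points are libraries with exact Poisson 95% intervals, and lines join the libraries of 1 data set. Bmp2 is higher in mTEC (34.9 and 33.2 CPM) and Bmp4 higher in cTEC (8.34 and 6.44 CPM) in both data sets.

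Within adult mTEC, the members were uneven across subsets. Each adult mTEC library was clustered on its own without the 10 members, and clusters were called mTEC I-like by Ccl21a, Krt5, Krt14, Itgb4 and Itga6, genes of the Ccl21a-expressing medullary subset. They held 445 of 1585 cells in replicate 1 (28.1%, exact binomial interval 25.9 to 30.4) and 957 of 5615 in replicate 2 (17%, 16.1 to 18.1), with median depths of 6730 and 8140 UMIs against 11244.5 and 12508 in the other cells. All values on these classes are descriptions, since the clusters come from the same cells, and some of the members were among the leading genes of these clusters when compared with the rest.

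Fst was the most uneven member. It stood at 286 CPM in mTEC I-like cells and 21.0 in the other cells of replicate 1, and at 151 and 6.74 in replicate 2, which are ratios of 13.6 (11.9 to 15.6) and 22.4 (20 to 25.1). Among thinned cells, 44.4% and 29.4% of mTEC I-like cells had an Fst UMI against 4.42% and 1.32% of the others. Id1 was at 299 against 56.4 CPM and 243 against 30.6 (ratios 5.29, 4.81 to 5.83, and 7.95, 7.46 to 8.48).

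Id3 was at 1307 against 216 CPM in replicate 1 and 591 against 138 in replicate 2 (6.07, 5.78 to 6.36, and 4.28, 4.13 to 4.44), and was seen in 87.2% and 68.7% of thinned mTEC I-like cells. Id2 was at 469 against 169.5 and 312 against 70.7 CPM (2.77, 2.59 to 2.96, and 4.41, 4.20 to 4.63). Bmp7, Smad6 and Smad7 were also higher in the mTEC I-like cells, with ratios of 2.15 and 2.71, 3.10 and 3.28, and 2.56 and 2.59. Bmp2 ran the other way at 12.7 against 40.1 and 14.99 against 35.7 CPM (0.318, 0.224 to 0.438, and 0.420, 0.347 to 0.503). Bambi was lower in replicate 1 (0.593, 0.429 to 0.804) and did not differ beyond counting error in replicate 2 (0.824, 0.645 to 1.04). Without the cluster with myeloid markers, Bambi in replicate 1 was higher in the mTEC I-like cells, at 15.3 against 5.99 CPM (2.55, 1.67 to 3.89). The mTEC I-like cells also had higher sums of stress genes (21150 against 8370 CPM in replicate 1 and 12760 against 4973 in replicate 2) and of mesenchymal markers (243 against 66.2 and 142 against 59.0), whose part in these differences was not tested. Replicate 1 had the higher share of mTEC I-like cells and, within them, more Id3 and Fst than replicate 2, as well as the higher stress gene sum.

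**Figure D4:**
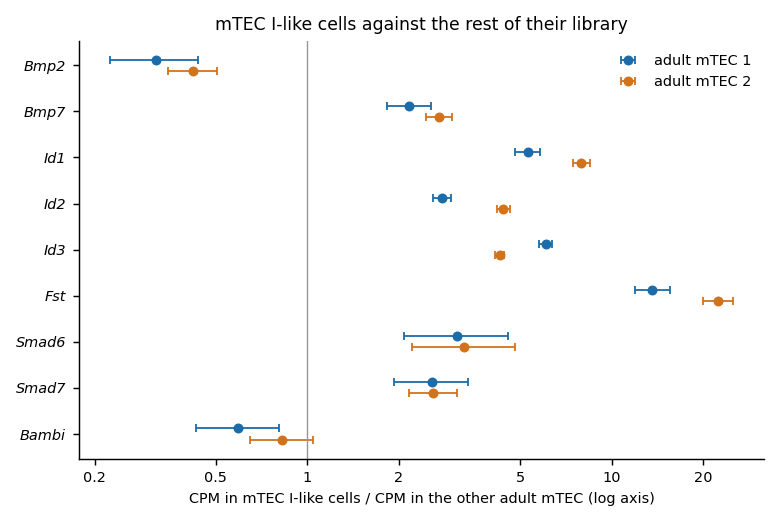
Level in mTEC I-like cells over the level in the other cells of the same adult mTEC library, for 9 of the 10 members (log axis, the vertical line marks equal levels). Points are ratios of CPM and bars their 95% counting intervals. Bmp4 is left out because it had 0 and 1 UMIs in the mTEC I-like cells. Fst, the Id genes, Bmp7, Smad6 and Smad7 lie above 1 and Bmp2 below 1 in both replicates.

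Adult cTEC were also divided into cells with and without a UMI of the cortical genes Psmb11 or Prss16, a division that also follows depth (median 4638 and 7684 UMIs with, 2963 and 5302 without). Cells without such a UMI were 167 of 493 in replicate 1 and 109 of 535 in replicate 2. Their Fst level was 54.6 CPM against 11.8 in replicate 1 and 87.0 against 15.6 in replicate 2. Id1 was at 186 against 77.7 and 235 against 73.9 CPM, and Id3 at 490 against 313 and 649 against 357. Id2 did not differ beyond counting error in replicate 1 (146 against 147 CPM) and was at 254 against 143 in replicate 2. Bmp4 was at 12.8 against 6.84 CPM and 15.7 against 4.91, with overlapping intervals in both replicates. Bmp7 was lower in these cells of replicate 2, at 12.2 against 38.4 CPM, and did not differ beyond counting error in replicate 1 (25.5 against 40.4). The summed mTEC I markers were also higher in them, at 8708 against 5316 CPM and 4224 against 874. So were the stress genes (24930 against 19820 and 19680 against 10970 CPM), the mesenchymal markers (976 against 351 and 760.5 against 245) and the endothelial markers (131 against 52.8 and 111 against 1.44). The part of these lists in the levels of the members was not tested.

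Cells were also divided by a proliferation score of 96 S and G2M phase genes, with cells above 0 called cycling. Cycling cells made up 80.9% of E13.5 TEC, 32.6% of E15.5, 14.7% of E17.5 and 13.3% of NB cTEC, 2.23% and 8.41% of adult cTEC (11 and 45 cells) and 13.8% and 14.3% of adult mTEC. The score has no gap at the limit, and 1716 of 25291 cells (6.79%) lay within 0.05 of it. Id2 was higher in cycling than in resting cells in all 6 cortical libraries: at 140 against 62.4 CPM in E13.5 TEC, 25.6 against 11.3 in E15.5, 8.26 against 4.13 in E17.5 and 44.2 against 29.7 in NB cTEC, and 213 against 145 and 213 against 151 in adult cTEC. The intervals overlapped in adult cTEC replicate 1, with 14 UMIs in its cycling cells. In adult mTEC the order was the opposite, at 139.8 against 249.5 CPM and 83.1 against 105. Without the mTEC I-like cells it stayed so in replicate 1 (135 against 181.5 CPM) and turned in replicate 2 (76.6 against 68.9).

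Id3 was higher in cycling cells in the 4 libraries from E13.5 to NB (284 against 171, 159 against 74.0, 60.9 against 30.03 and 149.7 against 117 CPM) and lower in both adult mTEC libraries (143 against 497 and 106 against 218). In adult cTEC it was 274 against 360.3 CPM in replicate 1, on 11 cycling cells, and 394 against 399 in replicate 2. Id1 was higher in cycling cells of E15.5, E17.5 and NB cTEC and of adult cTEC replicate 2 (137 against 91.6 CPM). In adult cTEC replicate 1 its cycling value (167 against 103) came from 1 cell. E13.5 TEC had 143 CPM in cycling and 158 in resting cells and adult mTEC had 57.9 against 114 and 50.9 against 58.3. Without the mTEC I-like cells, Id1 was at 50.2 against 58.5 CPM in replicate 1 (52.4 against 96.2 without the cluster with myeloid markers as well) and, in the turned order, at 43.0 against 26.7 in replicate 2. Fst had 11.1 CPM in cycling against 87.4 in resting adult mTEC of replicate 1, and 4.92 against 29.9 in replicate 2; without the cluster with myeloid markers it had 11.6 against 140 CPM in replicate 1. It was also lower in cycling cells of E13.5 TEC, at 1.20 (0.657 to 2.02) against 6.35 CPM (3.28 to 11.1), while the intervals overlapped in E15.5, E17.5 and NB cTEC. In adult cTEC it was at 60.8 against 21.5 and 37.0 against 24.3 CPM, on 4 and 17 UMIs in cycling cells, whose intervals (16.6 to 156 and 21.6 to 59.3) include the resting values.

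Bambi was at 9.64 CPM in cycling against 27.6 in resting adult mTEC of replicate 1 and 3.97 against 13.6 in replicate 2, and its intervals overlapped in all 6 cortical libraries. Without the cluster with myeloid markers, cycling and resting cells of adult mTEC replicate 1 did not differ beyond counting error (7.74 against 8.97 CPM, ratio 0.863, 0.528 to 1.37). In adult cTEC replicate 1 without that cluster, Bambi was at 111 against 30.2 CPM (3.68, 1.30 to 8.50), on 6 UMIs in 10 cycling cells. The share of cells with a UMI was not lower in cycling mTEC, at 10.1% against 6.52% and 5.59% against 5.61%, though these cells were deeper (medians of 15924 and 18515 UMIs against 8759 and 10480). Single cells held up to 46 and 35 UMIs of Bambi in adult mTEC, against at most 10 in the cortical libraries.

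Tested over all 8 libraries as cycling and resting sums, 1 of the 10 members passed, where 25% of the 16949 genes tested did (8.68% higher and 16.3% lower in cycling cells). An unadjusted p under 0.05 was found for 3 members and for 37.8% of all genes. Fst was lower in cycling cells by a log2 difference of -1.53 (SE 0.38, adjusted p = 0.008). That call was lost in DESeq2 (-1.03, adjusted p = 0.137), which called 0 members, and without adult mTEC replicate 1 (-1.09, adjusted p = 0.112) or replicate 2 (-1.42, adjusted p = 0.062). It was also lost with cycling cells defined by separate S or G2M scores (-0.70, adjusted p = 0.14) and without the mTEC I-like cells (-0.92, adjusted p = 0.0842), of which 1.35% and 4.91% were cycling. With those cells left out, an alternative chosen after the data were seen, Id1 (0.57, adjusted p = 0.0176) and Id2 (0.51, adjusted p = 0.0297) passed as higher in cycling cells. Each passed in 2 of all 16 alternatives run, with estimates from 0.22 to 0.57 for Id1 and from 0.27 to 0.59 for Id2. The median difference was -0.03 over the members and -0.16 over all genes tested.

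The difference between the lineages in this respect was then tested as an interaction, chosen after the values above were seen: the cycling difference in adult mTEC minus that in the cortical line. In this test 5 of the 10 members passed, all lower, where 7.5% of all genes tested passed in that direction, 14.5% in the other and 22% in either. The same 5 members had an unadjusted p under 0.05, as did 35.2% of all genes tested. These were Fst (-2.15, SE 0.48, adjusted p = 0.00479), Id3 (-1.55, SE 0.34, adjusted p = 0.00492), Bambi (-1.26, SE 0.26, adjusted p = 0.00336), Id2 (-1.01, SE 0.26, adjusted p = 0.0115) and Id1 (-0.92, SE 0.29, adjusted p = 0.0307), beside a median of 0.12 over all genes tested. Of all calls in this test 65.9% were higher; under edgeR's RLE scaling 25.5% were, with the median at -0.29, and the 5 members were still called lower (-2.61, -1.98, -1.63, -1.43 and -1.32 in the same order). Without the mTEC I-like cells, Id3 (-1.28, adjusted p = 0.00297), Id2 (-0.91, adjusted p = 0.00493) and Bambi (-1.78, adjusted p = 7.63e-05) passed, while Fst (-1.39, adjusted p = 0.105) and Id1 (-0.42, adjusted p = 0.344) did not. With cycling cells defined by separate S or G2M scores, Bambi (-0.16, adjusted p = 0.733), Id1 (-0.78, adjusted p = 0.0647) and Id2 (-0.83, adjusted p = 0.0623) did not pass. Id1 also did not pass without E17.5 cTEC (adjusted p = 0.0765). Of the 5, Id3 alone passed in all 12 alternatives run.

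**Figure D5:**
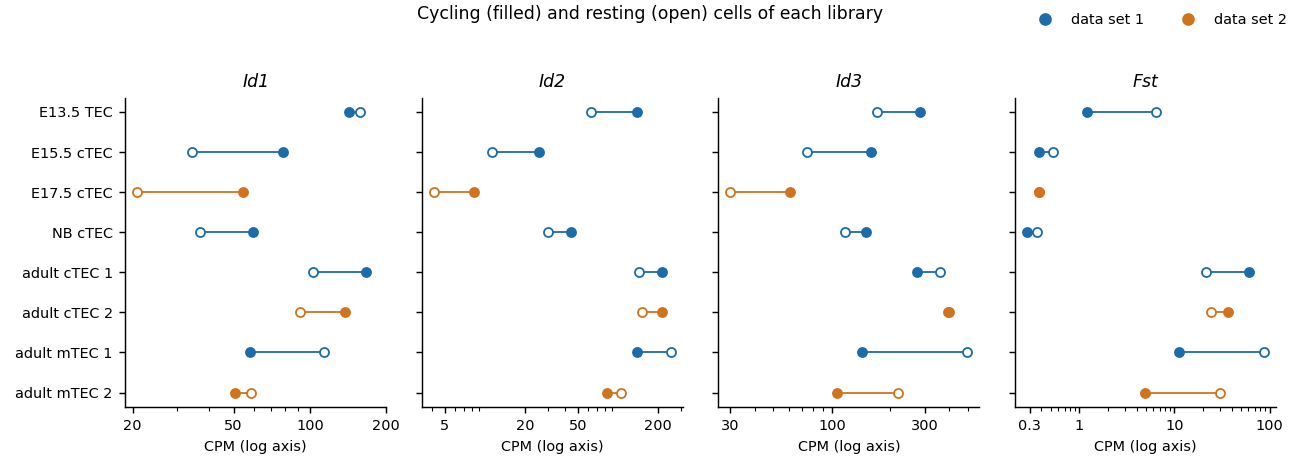
Levels of Id1, Id2, Id3 and Fst in cycling (filled) and resting (open) cells of each library, in scaled counts (CPM, log axes, each gene on its own scale). Each line joins the values of 1 library, and no error is drawn; adult cTEC replicate 1 had 11 cycling cells. Cycling cells are to the right for Id2 in the 6 cortical libraries and to the left for all 4 genes in both adult mTEC libraries; without the mTEC I-like cells, Id1 and Id2 are to the right in adult mTEC replicate 2.

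The other genes of the pathway were taken from a list of 60 ligands, receptors, signal transducers, antagonists, targets and E proteins. In adult cTEC against adult mTEC, 49 were tested, of which 11 were higher and 10 lower in cTEC, beside 11.2% and 21.2% of all genes tested. Of the receptors and co-receptors, 3 of 11 were higher and 0 lower in cTEC: Bmpr2, the BMP type II receptor (log2 difference 1.36), Acvrl1, a type I receptor (2.53), and Rgma, a BMP co-receptor (1.22). Acvrl1 rests on 7 and 19 UMIs in adult cTEC. The endothelial markers summed to 72.7 and 17.1 CPM there, 13.8 in NB cTEC and 18.95 and 10.8 in adult mTEC. Emcn (8.34 and 4.70 CPM) and Kdr (5.56 and 2.72) were higher in adult cTEC than in NB cTEC (0.0432 each) or adult mTEC (at most 0.386). Cldn5 was lower in adult cTEC than in adult mTEC, and Pecam1 was lower in adult cTEC replicate 2 than in NB cTEC or adult mTEC. The part of these markers in the Acvrl1 values was not tested. All 3 E proteins that Id proteins bind were measured, and Tcf4 (1.83) and Tcf12 (1.19) were higher in cTEC while Tcf3 did not pass. Tcf4 stood at 251 and 156 CPM in adult cTEC and 65.5 and 43.2 in adult mTEC.

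Of 11 other antagonists tested, 3 were higher and 6 lower in cTEC. Nbl1 (2.58), Twsg1 (1.66) and Fstl1 (1.17) were higher in cTEC, and Grem1 (-2.69), Bmper (-3.46), Sostdc1 (-1.09), Htra1 (-1.35) and Sost were higher in mTEC. The adult cTEC libraries held only 12 and 2 UMIs of Grem1 and 0 and 2 of Bmper. Grem1 encodes a secreted protein that binds BMP2 and BMP4. Sostdc1 was at 21.8 CPM in cTEC against 25.9 in mTEC of data set 1 and 6.19 against 22.2 in data set 2. Sost had 0 UMIs in both adult cTEC libraries, where 3 counts would be 1.39 and 0.743 CPM, and stood at 5.41 and 5.38 CPM in adult mTEC. Of the other ligands, Bmp3 (-3.00) and Gdf11 (-3.63) were higher in mTEC, on 8 and 7 UMIs of Bmp3 and 1 and 0 of Gdf11 in adult cTEC. Among further targets, Hey1, a Notch and BMP target, and Id4 were higher in cTEC (2.54 and 1.54) and Msx1 and Atoh8 lower (-2.01 and -1.47). Id4 stood at 12.97 CPM in adult cTEC and 10.6 in adult mTEC of data set 1, and at 107 and 16.7 in data set 2, so its difference rests mainly on adult cTEC replicate 2. Smurf2, a ubiquitin ligase that acts on SMADs, was higher in cTEC (1.09).

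In the age trend, 5 of the 46 pathway genes tested rose and 3 fell, beside 5.27% and 3.12% of all genes. Those that rose were Htra1 (log2 difference per stage 1.80), Acvrl1 (1.80), Tob1 (0.69), Id4 (0.62) and Rgmb (0.58), and those that fell were Acvr2b (-0.96), Tcf3 (-0.41) and Hey1 (-0.41). Acvrl1 rested on at most 21 UMIs in any library of the cortical line. Hey1 stood at 211 CPM in E13.5 TEC, 148, 133 and 87.4 in E15.5, E17.5 and NB cTEC, 52.4 and 115 in adult cTEC and 15.46 and 10.8 in adult mTEC, so its path over the stages was not that of the Id genes. The type I receptor gene Bmpr1a stayed between 43.0 and 54.5 CPM in the cortical line and was at 32.3 and 21.4 in adult mTEC. In cycling against resting cells, Tcf3 (0.56) and Atoh8 (0.54) were higher in cycling cells and Nbl1 (-0.55) and Smad9 (-1.10) lower, of 51 tested, beside 8.68% and 16.3% of all genes.

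Across the 8 libraries, levels of Id2 and Id3 went together (Pearson r = 0.973 of log2 levels with a pseudocount of 10 CPM), and Id3 was the gene most like Id2 of the 4809 compared. Id1 had r = 0.879 with Id2 and 0.893 with Id3. The genes most like Id3 were Actr2 (0.974), Id2 and Gja1 (0.903), and those most like Fst were Ifi203 (0.974), Urah (0.970) and Krt14 (0.965), the last a keratin among the mTEC I markers. Bmp7 was most like Bnip3 (0.950), Fzd2 (0.936) and Polr2m (0.932), and Id1 most like Ppp3ca (0.903), Tra2b (0.900) and Rdh10 (0.900). The 8 points share data sets, digestion and stage, and the coefficients are descriptions.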

How the data were processed

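Single-cell RNA was measured in 8 sorted TEC libraries (Chromium version 2). The authors counted UMIs per gene and cell; the submitters' processing notes name Cell Ranger 2.0.1, STAR 2.5.1b, bcl2fastq 2.17 and mm10, while Cell Ranger 3.0.1 stands in the matrix headers of the second data set. The deposited matrices hold raw whole-number counts. Cells over 5% mitochondrial UMIs or 5000 genes were left out, with no other treatment of doublets. Cells were clustered per data set (2000 variable genes, 20 components, 20 neighbours, resolution 0.8; leidenalg 0.10.2, scikit-learn 1.9.0, Python 3.11.15). Thymocyte-like, thyroid-like and parathyroid-like clusters were left out when at least 3 markers, and over 50% of the list, were at least 4-fold above other cells (mTEC subsets 2-fold, pseudocount 10 CPM) and, a condition added after the clusters were seen, 1 marker was among the 10 leading genes; it kept 1 cluster that met the myeloid limit, left out in an alternative. Libraries shared at most 1.2% of barcodes.

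Counts were summed per library and tested in edgeR 4.0.16 (R 4.3.3, filterByExpr, TMM, quasi-likelihood, data set as a term, Benjamini-Hochberg adjusted threshold 0.05); DESeq2 1.42.0 was an alternative. Standard errors of edgeR were the estimate over the root of F. On simulated counts 200 of 200, 179 of 200 and 197 of 200 changed genes were recovered for the age trend, lineage and cycling tests. The planted log2 changes were 1 per stage, 2 and 1, only in genes above a set average level. Recovery of smaller changes, or of genes as low as several members, was not measured. The labels do not say whether adult libraries came from separate animals, so p-values do not measure a spread between animals. In the age trend the stages before the adult were not replicated, so its residual includes departure from a straight line. The age and lineage fits left few residual degrees of freedom, and edgeR shares information on spread across genes. The members and lists were chosen with earlier results of these data known. Other genes were named only when they passed one of these tests, or by likeness to a member as the 3 highest correlations among genes reaching 50 CPM in a library; Bmpr1a was named after its values were seen, and not every gene that passed is reported here. Gene positions are those of the GRCm38 annotation.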

Additional observations from a re-analysis of the deposited data

Results flagged for a closer look

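Some cells left out of all comparisons had higher levels of a member than the epithelial-like cells of their library. In E13.5 TEC, 139 thyroid-like cells had Id2 at 565.7 CPM against 128.9 in the epithelial-like cells, and Bmp4 at 25.47 CPM (24 UMIs, exact Poisson interval 16.3 to 37.9) against 9.83. Id3 was at 508 CPM and Id1 at 247 in the same cells. In NB cTEC, 169 thymocyte-like cells had Fst at 3.23 CPM (5 UMIs, interval 1.05 to 7.54) against 0.346. These cells also had Psmb11 at 1636 CPM and a median of 8652 UMIs, so they are not free of epithelial RNA and give no background level for the other cells.

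For 5 members the cycling difference was lower in adult mTEC than in the cortical line (edgeR's quasi-likelihood interaction test, chosen after the values were seen). On the log2 scale the differences were -1.26 for Bambi, -2.15 for Fst, -0.92 for Id1, -1.01 for Id2 and -1.55 for Id3. Of all genes tested, 7.5% passed as lower and 22% in either direction. Without the mTEC I-like cells the differences were -1.78, -1.39, -0.42, -0.91 and -1.28 in the same order, and Fst and Id1 did not pass. With separate S or G2M scores Bambi (-0.16), Id1 (-0.78) and Id2 (-0.83) did not pass.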

How the results depend on the processing

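The labels carry no replicate numbers, so libraries were not paired by number; the lineage fit compared cTEC with mTEC within data sets, and the cycling fit cycling with resting cells within libraries. No value of a member changed the direction of a call under any alternative run. Calls on the members held for 135 of 140 values in the lineage test, 138 of 140 in the age trend, 151 of 160 for cycling and 113 of 120 for the interaction. Bmp2 (-4.06 to -2.57) and Bmp4 (4.91 to 5.68) passed the lineage test in all 14 alternatives. The count of all genes called moved more. In adult cTEC against adult mTEC it was 5063, with 2604 in DESeq2, 2674 without the cluster with myeloid markers and, without each library in turn, 2874 (cTEC replicate 1), 2417 (cTEC replicate 2), 2673 (mTEC replicate 1) and 1528 (mTEC replicate 2), which also drops the data set term and leaves an arm with 1 library, assumed to vary like the other. In the age trend it was 1197, with 561 in data set 1 only, 2883 in DESeq2, 771 in resting cells only, 26 without adult cTEC replicate 1 and 531 without replicate 2. In the interaction it was 3730 (65.9% higher), with 1558 (21.6% higher) without the cluster with myeloid markers, 1675 without adult mTEC replicate 2, 2172 without E15.5 cTEC, 2139 without E17.5 cTEC and up to 3798 when another library was left out. Bmp7 passed the interaction under RLE scaling only (-0.49, adjusted p = 0.0213). Using all deposited cells kept 74 of 80 member levels within their counting interval, and keeping the left-out clusters kept 78, with Fst in NB cTEC at 0.527 in place of 0.346 CPM. Levels that rest on few UMIs, such as Bmp4 in adult mTEC or Fst before adulthood, are limited by depth, and all groups before the adult had 1 library. The causes of these shifts were not tested.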

Other observations

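In data set 2, a cluster of 89 adult mTEC led by Ccl6, Ccl20, Ccl9 and Gp2, which met no subset's markers, had Bmp2 at 273.9 CPM (exact Poisson interval 237 to 315) on 197 UMIs. It was chosen after its values were seen. In adult mTEC replicate 1, the 370 mTEC II-like cells, marked by genes such as Aire and Fezf2, had Bambi at 53.9 and Id1 at 13.1 CPM, and the 194 mTEC III-like cells had Bmp2 at 83.8 CPM. The 495 mTEC III-like cells of replicate 2 had Bmp2 at 33.9 CPM. Leading genes of the replicate 1 class included Hamp, Ccl20 and Ccl9, which also led the cluster of 89 cells set apart in replicate 2. The mTEC III-like classes of the replicates may therefore not hold the same cells. The 124 parathyroid-like cells of E13.5 TEC had Id3 at 363.5 CPM and Bmp7 at 85.7, with 0 UMIs of Bmp2, Bmp4 and Fst, where 3 counts would be 5.14 CPM.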
